A study of Mus musculus with 36 samples.

Results

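Muscle satellite cells of young wild-type mice were compared 1 day after a muscle injury (1 DPI, days post injury) with the same cells of uninjured muscle (QSC, quiescent satellite cells). The comparison rests on 6 of the 36 libraries in the series, chosen by their labels: 1 DPI libraries 5, 6 and 7 and QSC libraries 4, 5 and 6, n = 3 each. Every gene of the table that holds these libraries was read. The 1 DPI cells came from skeletal muscle of C57BL/6 wild-type mice aged 3 months, 1 day after an injection of cardiotoxin, a snake venom toxin that kills muscle fibres. The QSC came from uninjured skeletal muscle of mice of the same strain, genotype and age. Neither group is said to carry a reporter or a Cre allele or to have received tamoxifen, and how these wild-type cells were sorted is not stated, whereas cells of the reporter mice of the series were sorted by YFP. The series names the tibialis anterior, quadriceps and gastrocnemius as the injured muscles and the hindlimb as the source of QSC, so injury and muscle of origin cannot be told apart. The same table holds wild-type cells of mice aged 24 months (QSC, 1 DPI and 3 DPI, n = 3 each). Control cells of tamoxifen-treated Pax7-CreER;ROSA26YFP mice, in which Cre under the Pax7 gene marks satellite cells with YFP, stand in a second table (1 DPI, n = 4, and QSC, n = 3) and were used as other libraries of the same comparison.

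Satellite cells lie between a muscle fibre and its basement membrane and rest outside the cell cycle until the fibre is damaged. Injury then drives them through activation, in which they grow, build mitochondria and enter their first cell cycle, before their daughters either differentiate and fuse or return to rest. The transcription factor Pax7 marks the lineage, Myf5 and Myod1 mark commitment and activation, and Myog marks the start of differentiation. RNA of the whole sorted population was measured, and in such bulk RNA fewer cells of a type and less RNA per cell cannot be told apart.

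Values are TPM, each gene's share of all transcripts in a library after correction for transcript length. TPM keep no sequencing depth, so counting error is unknown, and p-values here reflect how much libraries of the same group vary, pooled over the 15 libraries of the table, part of which may be technical. Between 13134 and 14371 genes reached 1 TPM in each of the 6 libraries. Across the genes tested, libraries correlated at r = 0.926 to 0.940 within a group and at 0.822 to 0.855 between the groups. The 10 most abundant genes took 10.5% to 11.8% of all TPM in the 1 DPI libraries and 14.1% to 15.4% in the QSC libraries. Fold changes are differences of log2(TPM + 1), 1 DPI minus QSC, with the SE of the fit, so 1 means about a doubling for a well expressed gene and less than that for a gene near 0 TPM. A gene is said to have risen or fallen, or to be higher or lower, where limma's Benjamini-Hochberg adjusted p over all genes tested was below 0.05. The 15 libraries of the table share a factor per gene whose origin is not stated, which cancels in fold changes of well expressed genes but not in comparisons of levels between genes.

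Of 16949 genes tested, 3934 (23.2%) were higher and 1490 (8.79%) were lower at 1 DPI than in QSC. These shares are the background against which the counts of each gene group below are read. Most members of the lists are protein-coding, and of 12805 such genes 4911 (38.4%) were called, 3733 higher and 1178 lower. The median log2 fold change of all genes was 0.24. Since TPM of a library sum to a constant, a fall of the most abundant genes lifts all others, and the comparison was therefore also scaled by median of ratios, which sets the typical gene to no change. With that scaling the median was −0.02, and 30.1% of the genes were called, 2606 higher (15.4%) and 2504 lower (14.8%), so 51.0% of the calls were in the upward direction, against 72.5% with TPM as deposited. All 1490 genes lower with TPM and all 2606 genes higher after scaling were called the same way by both, and 0 genes were called in opposite directions. The excess of higher over lower genes depends on the scaling, and each group count is followed by the count after scaling. The libraries of the groups did not overlap for 8416 genes (49.7%).

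**Figure D1:**
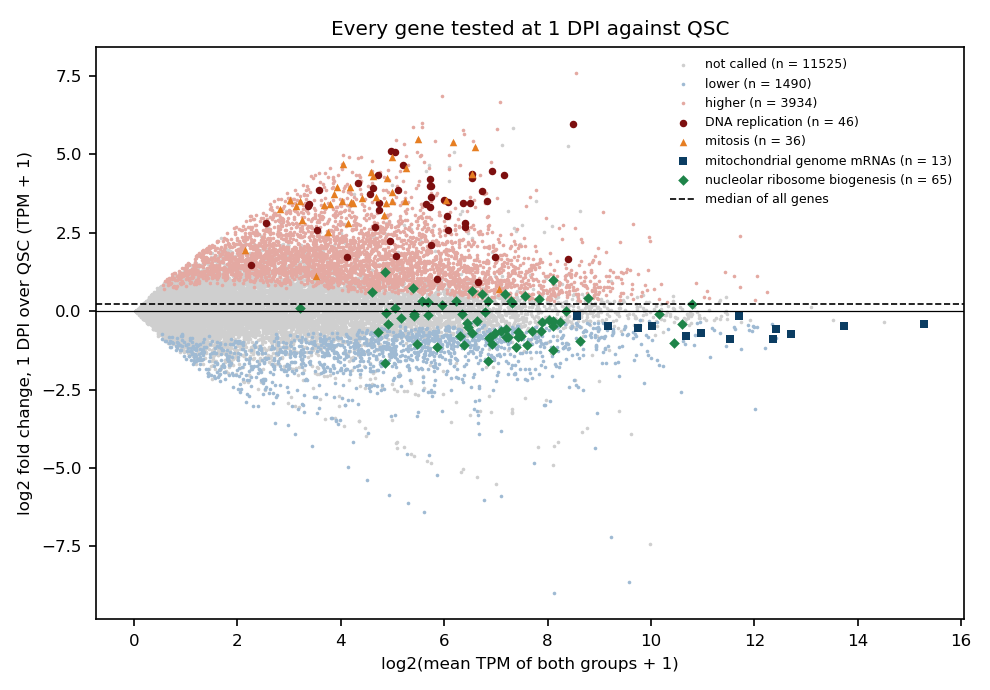
Each point is a gene, placed by its mean level over both groups (x axis, log2 of TPM + 1) and its log2 fold change, 1 DPI over QSC (y axis). Red and blue points are the 3934 higher and 1490 lower genes, grey points those not called, and members of 4 gene lists are drawn over them: all 46 DNA replication and 36 mitosis genes lie above 0, the mitochondrial genome mRNAs lie below 0 at the highest levels, and most nucleolar genes lie near or below 0.

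The largest increases by the rule for named genes included genes of the cell cycle and genes of secreted inflammatory signals. That rule admits only genes whose libraries do not overlap between the groups. The lack of overlap among the largest changes in either direction therefore follows from the choice. Spp1 (ENSMUSG00000029304, GRCm38 chromosome 5, 104435118 to 104441050, plus strand), which encodes the secreted matrix protein and cytokine osteopontin, stood at 881, 622 and 738 TPM at 1 DPI, against 2.296, 1.64 and 5.45 TPM in QSC. Each 1 DPI library was far above each QSC library (log2 fold change 7.6, SE 0.44, limma adjusted p = 2.06e-07). Rrm2 (ENSMUSG00000020649, GRCm38 chromosome 12, 24708241 to 24714146, plus strand), the small subunit of the enzyme that makes deoxyribonucleotides, stood at 658, 639.8 and 813 TPM at 1 DPI, against 10.5, 22.2 and 4.34 TPM in QSC, with no overlap (log2 fold change 5.96, SE 0.48, limma adjusted p = 1.13e-06). Esm1, a secreted proteoglycan, rose to 93.1 ± 14.3 at 1 DPI, against 0.535 ± 0.637 TPM in QSC (SD, n = 3 each, as for all means with an error below). Hells, a chromatin remodeller of dividing cells, rose to 253 ± 48.6 at 1 DPI, against 4.17 ± 3.15 TPM in QSC. Ddah1, which degrades an inhibitor of nitric oxide synthase, rose to 64.7 ± 21.7 at 1 DPI, against 0.471 ± 0.369 TPM in QSC, and Trip13, an ATPase of the spindle checkpoint, to 71.97 ± 2.36 at 1 DPI, against 0.989 ± 0.939 TPM in QSC. Log2 fold changes of these 4 genes were 6.0, 5.82, 5.46 and 5.32, and their calls held in all 14 alternative fits. The mitotic kinase gene Pbk (5.65) and the platelet chemokine gene Pf4 (5.44) also stood among the 15 largest increases by the rule for named genes. Pbk shares 55.3% of its transcript with a predicted gene, so part of its reads cannot be assigned with certainty.

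Among abundant genes, Lgals1, encoding galectin-1, held 5761, 4994 and 6329.8 TPM at 1 DPI, against 1209.6, 1259 and 791 TPM in QSC, an increase in every library (log2 fold change 2.41, SE 0.25, limma adjusted p = 8.62e-06). The actin-binding profilin gene Pfn1 rose to 3917 at 1 DPI against 1636 TPM in QSC and the prolyl isomerase gene Ppia to 4305 at 1 DPI against 1966 TPM in QSC. Actb, encoding beta-actin, held 6701, 6407 and 4519 TPM at 1 DPI, against 2658, 2615 and 2625 TPM in QSC. Its libraries did not overlap, yet its log2 fold change of 1.14 became 0.74 after median-of-ratios scaling and no longer passed. Tmsb10 (0.62 and 0.22 after scaling) and Ubb (0.77 and 0.38) lost their calls in the same way, and Ptma had 0.35 with TPM and, with the opposite sign and no call, -0.05 after scaling. Transcripts of Tmsb10, Ubb and Ptma share over 50% of their length with other genes.

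The largest decreases included genes for secreted or surface proteins. Erfe (ENSMUSG00000047443, GRCm38 chromosome 1, 91366430 to 91374217, plus strand), whose product erythroferrone is a hormone that lowers hepcidin, stood at 10.9, 15.4 and 12.9 TPM at 1 DPI, against 524, 318 and 387 TPM in QSC. All 3 QSC libraries were over an order of magnitude above all 3 at 1 DPI (log2 fold change -4.85, SE 0.29, limma adjusted p = 2.2e-07). Chrdl2 (ENSMUSG00000030732, GRCm38 chromosome 7, 100006172 to 100034728, plus strand), a chordin-like antagonist of BMP ligands, held 33.4, 48.2 and 52.8 TPM at 1 DPI, against 805, 865 and 1107 TPM in QSC, again with no overlap (log2 fold change -4.35, SE 0.51, limma adjusted p = 2.38e-05). Npy, the precursor of neuropeptide Y, held 3.92, 1.44 and 1.61 TPM at 1 DPI, against 83.6, 69.2 and 68.9 TPM in QSC. Gal, the precursor of galanin, was among the most abundant of the genes that fell and held 983, 571 and 929 TPM at 1 DPI, against 11547, 4434 and 6474 TPM in QSC (log2 fold change -3.1, SE 0.52, limma adjusted p = 0.000446). Both neuropeptide genes were lower in each injured library than in any quiescent one.

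Other genes of the 15 largest decreases included P2ry14, a receptor for UDP-glucose (12.2 against 189 TPM, 1 DPI first in each pair here), Spsb1, an adaptor of an E3 ubiquitin ligase (16.9 against 255 TPM), Serpine2, an inhibitor of thrombin and plasminogen activators (17.9 against 180.5 TPM), Ccn2, a matricellular growth factor modulator (7.12 against 79.3 TPM), Pgf, a ligand of VEGF receptor 1 (4.64 against 56.3 TPM), and Vldlr, a lipoprotein receptor (5.41 against 59.3 TPM). Their log2 fold changes were -3.91, -3.82, -3.3, -3.35, -3.34 and -3.3. The adaptor gene Bcar3 (-3.57), the sialidase gene Neu2 (-3.59) and the sulfatase gene Arsg (-3.48) fell as well. Tex14, known from intercellular bridges of germ cells, and Oxtr, the oxytocin receptor, held 21.1, 42.9 and 35.6 TPM and 10.6, 9.23 and 14.04 TPM in QSC, and all their 1 DPI libraries stood at the lowest value the table gives the gene, so no fold is given for them. Such a floor in all 3 libraries of a group was found in 126 of the 5424 genes called (2.32%).

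The cells carried the transcripts of the satellite cell lineage in both groups. Pax7 (ENSMUSG00000028736, GRCm38 chromosome 4, 139737062 to 139833528, minus strand) held 23.99, 33.03 and 22.1 TPM at 1 DPI, against 6.16, 6.51 and 5.66 TPM in QSC. It was higher in each 1 DPI library than in any QSC library (log2 fold change 1.93, SE 0.28, limma adjusted p = 0.000137), and its value was 1.55 after scaling. Myf5 held 406, 412 and 321 TPM at 1 DPI, against 765, 686 and 559 TPM in QSC, and Myod1 302, 355 and 438 TPM at 1 DPI, against 614, 656 and 673 TPM in QSC. Both were abundant in all 6 libraries and lower in each 1 DPI library than in any in QSC, at log2 fold changes of -0.82 (SE 0.2, limma adjusted p = 0.00673) and -0.84 (SE 0.28, limma adjusted p = 0.0327). The Myod1 call was lost in 7 of 14 alternatives, among them the removal of any of 5 of the 6 libraries, and its value stayed negative in each. Myod1, a mark of activation, was thus abundant in cells labelled quiescent. Whether those cells had left rest before their RNA was taken was not tested. Myog held 24.98, 21.4 and 34.1 TPM at 1 DPI, against 16.5, 10.4 and 18.5 TPM in QSC. The groups did not overlap, and the difference of 0.8 did not pass (limma adjusted p = 0.0947).

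Of 15 myogenic regulators, 6 were higher and 3 lower, or 3 and 5 after scaling. Id1, an inhibitor of MyoD-type factors and a target of BMP signalling, rose to 260.3 ± 18.2 at 1 DPI, against 68.6 ± 14.1 TPM in QSC, and Id2 and Id3 had log2 fold changes of 0.97 and 0.74, neither called after scaling. Mef2a, a partner of MyoD in differentiation, fell to 25.5 ± 6.05 at 1 DPI, against 62.7 ± 6.53 TPM in QSC. Pax3 stood at 4.65 at 1 DPI against 10.1 TPM in QSC, Mef2c at 4.86 at 1 DPI against 1.29 TPM in QSC and Eya1 at 16.2 at 1 DPI against 11.4 TPM in QSC, and none of these passed.

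**Figure D2:**
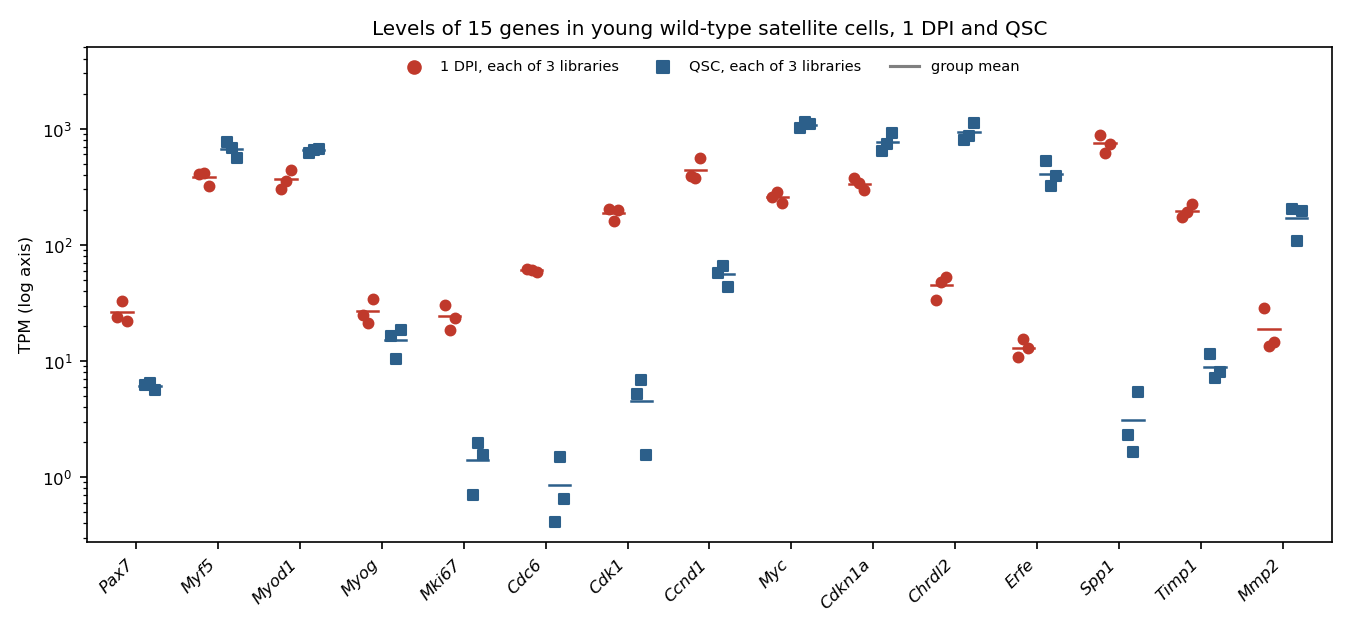
TPM on a log axis of 15 genes in each of the 3 1 DPI libraries (red circles) and 3 QSC libraries (blue squares) of young wild-type cells, with lines at the group means. Pax7, Mki67, Cdc6, Cdk1, Ccnd1, Spp1 and Timp1 are high at 1 DPI, Myf5, Myod1, Myc, Cdkn1a, Chrdl2, Erfe and Mmp2 are high in QSC, and Myog did not pass the test.

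Genes of quiescence and of the niche did not move together. Of 39 tested, 10 were higher and 11 lower (6 and 14 after scaling), with a median log2 fold change of −0.02. Without QSC library 5 or 1 DPI library 6, the higher count was 6, and without QSC library 4 the lower count was 7. Beside Chrdl2, the genes that fell included Asb5 (309.6 at 1 DPI against 1552 TPM in QSC), Apoe, a lipid carrier (328 at 1 DPI against 989.7 TPM in QSC), Sdc4, a heparan sulfate proteoglycan of the satellite cell surface (1224 at 1 DPI against 3304 TPM in QSC), Gpx3, an extracellular glutathione peroxidase (2929.8 at 1 DPI against 6541 TPM in QSC), and Cebpb, a transcription factor of resting satellite cells (10.9 at 1 DPI against 29.02 TPM in QSC). Calcr, the calcitonin receptor that marks quiescent cells, held 24.7, 13.1 and 11.6 TPM at 1 DPI, against 51.1, 36.5 and 39.5 TPM in QSC, and Vcam1, an adhesion molecule used to sort satellite cells, held 332, 407 and 326 TPM at 1 DPI, against 1169, 615 and 608 TPM in QSC. Both were lower in every injured library, and each call held in 9 of 14 alternatives. The other genes of the list that fell were Tek (7.41 at 1 DPI against 21.6 TPM in QSC), Col15a1 (4.96 at 1 DPI against 23.5 TPM in QSC) and Col5a3 (3.41 at 1 DPI against 8.43 TPM in QSC), the calls of Tek and Col5a3 holding in 8 and 5 of 14 alternatives. The genes that rose included Fgfbp1, an FGF carrier listed at its lowest value in all 3 QSC libraries and at 3.597, 1.72 and 9.37 TPM at 1 DPI, Dtna, a dystrobrevin (8.26 at 1 DPI against 0.992 TPM in QSC), Lbh (26.7 at 1 DPI against 6.61 TPM in QSC) and Fos (1111 at 1 DPI against 239.6 TPM in QSC). Cd34 belongs to a sorting gate of the series and stood at 189 at 1 DPI against 185 TPM in QSC. Spry1 (40.8 at 1 DPI against 51.4 TPM in QSC), Cxcr4 (11.98 at 1 DPI against 13.2 TPM in QSC) and Itga7 (114 at 1 DPI against 91.5 TPM in QSC) did not pass.

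The Notch pathway, which holds satellite cells at rest, had 6 higher and 1 lower of 27 members, or 4 and 4 after scaling, and 0 were lower without QSC library 4 or 1 DPI library 5. Hes6, which opposes the Notch effector Hes1, held 36.1, 42.5 and 37.6 TPM at 1 DPI, against 2.59, 2.86 and 3.29 TPM in QSC. Its levels were high in all 3 1 DPI libraries (log2 fold change 3.34, SE 0.62, limma adjusted p = 0.000932). Hes1 held 98.5, 36.6 and 17.8 TPM at 1 DPI, against 12.9, 3.86 and 7.92 TPM in QSC, a rise that is uneven among the injured libraries and held in 10 of 14 alternatives. The ligase gene Dtx4 rose to 31.2 at 1 DPI against 10.7 TPM in QSC, and the proteases Adam17 and Adam10, which cut Notch receptors, had log2 fold changes of 1.2 and 0.95. Heyl (27.3 at 1 DPI against 58.95 TPM in QSC), Hey1 (23.4 at 1 DPI against 17.5 TPM in QSC), Notch1 (7.53 at 1 DPI against 6.28 TPM in QSC) and Notch3 (8.56 at 1 DPI against 7.903 TPM in QSC) did not pass.

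Most genes of the cell cycle machinery were higher at 1 DPI. Of 24 cyclins, cyclin-dependent kinases and E2F factors of G1 and S phase entry, 16 were higher and 2 lower, or 14 and 4 after scaling, and the median log2 fold change was 1.98. Ccnd1, encoding the D-type cyclin that couples growth factors to the cycle, held 393, 379 and 553 TPM at 1 DPI, against 57.1, 66.2 and 43.5 TPM in QSC. All injured libraries were above all quiescent ones (log2 fold change 2.97, SE 0.32, limma adjusted p = 1.29e-05). Its partner kinases Cdk4 (662 ± 103 at 1 DPI, against 134 ± 32.3 TPM in QSC) and Cdk6 (26.5 ± 2.13 at 1 DPI, against 3.33 ± 1.95 TPM in QSC) rose too. So did Ccnd3 (205 ± 63.03 at 1 DPI, against 23.7 ± 2.82 TPM in QSC), Ccne1 (67.4 ± 3.09 at 1 DPI, against 6.55 ± 1.93 TPM in QSC) and Ccne2 (98.4 ± 6.78 at 1 DPI, against 6.52 ± 2.39 TPM in QSC), whose E-type cyclins start S phase with Cdk2. The activator E2f1 rose to 8.95 at 1 DPI against 0.638 TPM in QSC and the late repressor E2f7 to 11.5 at 1 DPI against 0.591 TPM in QSC. Rbl1, a pocket protein of the retinoblastoma family, stood at 22.7 at 1 DPI against 0.483 TPM in QSC, whereas its relatives Rb1 (16.4 at 1 DPI against 13.4 TPM in QSC) and Rbl2 (10.6 at 1 DPI against 9.43 TPM in QSC) did not pass.

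The proto-oncogene Myc fell. It held 257, 285 and 228 TPM at 1 DPI, against 1002, 1129.6 and 1099.7 TPM in QSC, with each QSC library above each 1 DPI library (log2 fold change -2.07, SE 0.18, limma adjusted p = 1.81e-06). The E2F-type repressor E2f6 fell to 9.26 at 1 DPI against 36.5 TPM in QSC. Ccnd2 was uneven within both groups, at 421, 8.797 and 3.18 TPM at 1 DPI, against 6.67, 54.4 and 156 TPM in QSC, and the difference did not pass.

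Every member of the DNA replication list was higher at 1 DPI, 46 of 46, and 44 of 46 after scaling, with a median log2 fold change of 3.45. Leaving out any of the 6 libraries left 44 to 46 called. Their summed level was 0.511%, 0.515% and 0.595% of all TPM in the 1 DPI libraries and 0.0655%, 0.0722% and 0.0586% in the QSC libraries. Licensing factors load the MCM helicase onto origins in G1: Cdc6 held 61.4, 61.03 and 58.5 TPM at 1 DPI, against 0.409, 1.49 and 0.647 TPM in QSC, far apart in every library (log2 fold change 5.09, SE 0.25, limma adjusted p = 7.25e-08). Orc1, of the origin recognition complex, rose to 21.4 ± 6.45 at 1 DPI, against 0.521 ± 0.424 TPM in QSC, and the licensing factor Cdt1 to 25.6 ± 2.57 at 1 DPI, against 7.05 ± 1.51 TPM in QSC. Gmnn, encoding geminin, the inhibitor of Cdt1, rose to 62.9 ± 4.69 at 1 DPI, against 0.932 ± 0.4901 TPM in QSC. Of the helicase subunits, Mcm2 had the largest log2 fold change (4.67) and Mcm7 the smallest (1.72), with Mcm3, Mcm4, Mcm5 and Mcm6 at 3.85, 3.05, 3.99 and 3.51. Mcm7 shares 81.2% of its transcript with other genes.

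At the fork, Pcna, the sliding clamp, stood at 507 ± 41.9 at 1 DPI, against 161 ± 11.5 TPM in QSC (51.5% of its transcript is shared with a pseudogene), and its loader subunits Rfc4 and Rfc2 at 176 ± 9.18 at 1 DPI, against 8.19 ± 3.95 TPM in QSC and 269 ± 24.8 at 1 DPI, against 12.6 ± 2.298 TPM in QSC. The polymerase subunits Pole2, Pold1 and Prim1 had log2 fold changes of 4.1, 3.94 and 4.0. Transcripts of genes of nucleotide supply rose with them. Tyms, thymidylate synthase, reached 233 ± 10.2 at 1 DPI, against 9.64 ± 2.53 TPM in QSC, and Dut, dUTPase, 175 ± 32.9 at 1 DPI, against 8.098 ± 0.746 TPM in QSC. Uhrf1, which guides maintenance methylation of new DNA, rose to 48.9 ± 10.9 at 1 DPI, against 1.57 ± 1.14 TPM in QSC. The weakest changes were those of Orc6 (0.92) and Pold3 (1.02), and these were the 2 calls of the list lost after scaling, that of Pold3 holding in 4 of 14 alternatives.

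Promoters of replication genes often carry E2F-type elements, and those of mitotic genes carry CCAAT boxes and CHR elements, through which the cell cycle repressor complex DREAM and its activating relatives are known to act. Promoter windows from 250 bases before to 50 after a gene's start were read from RefSeq (GRCm38.p6) and searched on both strands for GCGGGAA (E2F-type), TTTGAA (CHR) and CCAAT. Shown are windows of 2 replication and 2 mitosis genes that rose and hold these letters, chosen after their values were seen, with the letters searched in capitals.
Cdc6, chr11:98907901-98908200, plus strand: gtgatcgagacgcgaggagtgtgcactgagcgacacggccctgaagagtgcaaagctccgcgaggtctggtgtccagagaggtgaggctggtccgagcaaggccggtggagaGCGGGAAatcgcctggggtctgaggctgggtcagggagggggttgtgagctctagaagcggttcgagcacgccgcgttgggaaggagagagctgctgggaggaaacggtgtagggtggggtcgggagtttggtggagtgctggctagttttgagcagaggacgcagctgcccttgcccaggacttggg
Rfc4, chr16:23127681-23127980, minus strand: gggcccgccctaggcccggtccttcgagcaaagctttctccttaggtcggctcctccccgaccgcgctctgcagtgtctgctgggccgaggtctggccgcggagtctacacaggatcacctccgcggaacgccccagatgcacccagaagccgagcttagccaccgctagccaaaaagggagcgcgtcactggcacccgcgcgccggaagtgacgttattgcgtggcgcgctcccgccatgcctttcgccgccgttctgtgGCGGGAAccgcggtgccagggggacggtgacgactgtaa
Cdk1, chr10:69352863-69353162, minus strand: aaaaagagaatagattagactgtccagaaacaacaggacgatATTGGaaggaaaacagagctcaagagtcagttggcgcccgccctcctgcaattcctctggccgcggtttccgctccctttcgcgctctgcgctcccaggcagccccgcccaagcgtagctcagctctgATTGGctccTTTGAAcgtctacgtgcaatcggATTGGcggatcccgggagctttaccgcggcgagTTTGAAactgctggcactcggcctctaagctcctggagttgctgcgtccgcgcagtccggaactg
Ube2c, chr2:164769679-164769978, plus strand: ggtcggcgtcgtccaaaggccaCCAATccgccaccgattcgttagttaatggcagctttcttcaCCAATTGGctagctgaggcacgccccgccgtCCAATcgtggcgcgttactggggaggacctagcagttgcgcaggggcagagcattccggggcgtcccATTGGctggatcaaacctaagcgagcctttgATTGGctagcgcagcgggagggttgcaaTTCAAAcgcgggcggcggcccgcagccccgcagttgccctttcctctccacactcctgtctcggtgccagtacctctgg
The Cdc6 and Rfc4 windows hold 1 E2F-type element each, the Cdk1 window 2 CHR elements and 3 CCAAT boxes, and the Ube2c window 1 CHR element and 6 CCAAT boxes, of which a pair on opposite strands overlaps. GCGGGAA was found in 39.5% of the 43 windows of the replication list (37 of its 46 genes matched), in 0 of the 32 windows of the mitosis list (29 of its 36 genes matched) and in 4.6% of all 32851 windows. TTTGAA was found in 71.9% of the mitosis windows, 11.6% of the replication windows and 17.9% of all windows. CCAAT was found in 75.0%, 58.1% and 37.4% of them. Among genes higher, lower and not called, GCGGGAA was in 10.1%, 7.34% and 6.93% of the windows. These letters describe the windows and do not show that a factor binds there.

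All 36 genes of the mitosis list were higher at 1 DPI, or 35 after scaling, with a median log2 fold change of 3.53. Cdk1, the kinase that drives entry into mitosis, held 201, 159.8 and 199 TPM at 1 DPI, against 5.19, 6.87 and 1.54 TPM in QSC. No quiescent library came near an injured one (log2 fold change 5.23, SE 0.44, limma adjusted p = 1.65e-06). Its cyclin partners Ccnb1 and Ccna2 rose, Ccnb1 to 86.95 ± 26.7 at 1 DPI, against 1.09 ± 0.963 TPM in QSC. Ccna2 rose to 55.5 ± 13.5 at 1 DPI, against 2.09 ± 1.19 TPM in QSC, and Ccnb1 shares 51.95% of its transcript with pseudogenes. The proliferation marker Mki67 held 30.5, 18.6 and 23.6 TPM at 1 DPI, against 0.695, 1.96 and 1.54 TPM in QSC, and each injured library was above each quiescent one (log2 fold change 3.41, SE 0.4, limma adjusted p = 2.4e-05). Of the chromosomal passenger complex, Birc5 (survivin) rose to 139 ± 35.3 at 1 DPI, against 2.31 ± 0.612 TPM in QSC, Aurkb to 59.97 ± 8.72 at 1 DPI, against 1.37 ± 1.69 TPM in QSC and Incenp to 57.6 ± 2.85 at 1 DPI, against 4.17 ± 1.02 TPM in QSC. Ube2c, the ubiquitin-conjugating enzyme of the anaphase-promoting complex, rose to 72.6 ± 28.7 at 1 DPI, against 2.26 ± 1.801 TPM in QSC and its activator gene Cdc20 to 68.8 ± 19.1 at 1 DPI, against 5.16 ± 1.73 TPM in QSC. Plk1 (3.96), Aurka (4.43), Top2a (4.39) and the kinetochore gene Ndc80 (3.39) rose as well. Foxm1, which activates mitotic genes, reached only 5.97 ± 1.55 at 1 DPI, against 0.836 ± 0.501 TPM in QSC, and Bub3, a checkpoint gene with a high level in both groups, differed least (166 at 1 DPI against 100.3 TPM in QSC), a call that held in 8 of 14 alternatives.

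Inhibitors of the cycle were mixed. Of 29 inhibitors and p53 targets, 7 were higher and 4 lower, or 4 and 8 after scaling. Cdkn1a, encoding the inhibitor p21, held 372, 339 and 296 TPM at 1 DPI, against 639, 742 and 921 TPM in QSC. It was lower in each injured library (log2 fold change -1.18, SE 0.16, limma adjusted p = 8.9e-05). Fas, the death receptor, fell to 44.1 ± 11.98 at 1 DPI, against 211 ± 65.6 TPM in QSC, and Aen, a nuclease of apoptosis, to 55.5 ± 4.904 at 1 DPI, against 123 ± 13.7 TPM in QSC. Cdkn2d and Cdkn2c, inhibitors of Cdk4 and Cdk6, rose, Cdkn2d to 88.1 ± 4.32 at 1 DPI, against 12.2 ± 2.604 TPM in QSC. Cdkn2c rose to 27.6 ± 4.21 at 1 DPI, against 14.2 ± 1.12 TPM in QSC (the Cdkn2c call held in 6 of 14 alternatives), and Phlda3 and Ccng1, both p53 targets, to 87.7 ± 31.96 at 1 DPI, against 18.2 ± 13.01 TPM in QSC and 29.4 ± 5.64 at 1 DPI, against 7.86 ± 0.5504 TPM in QSC. Trp53 itself (208 at 1 DPI against 259 TPM in QSC), Cdkn1b (16.4 at 1 DPI against 11.3 TPM in QSC) and Mdm2 (44.4 at 1 DPI against 40.7 TPM in QSC) did not pass.

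**Figure D3:**
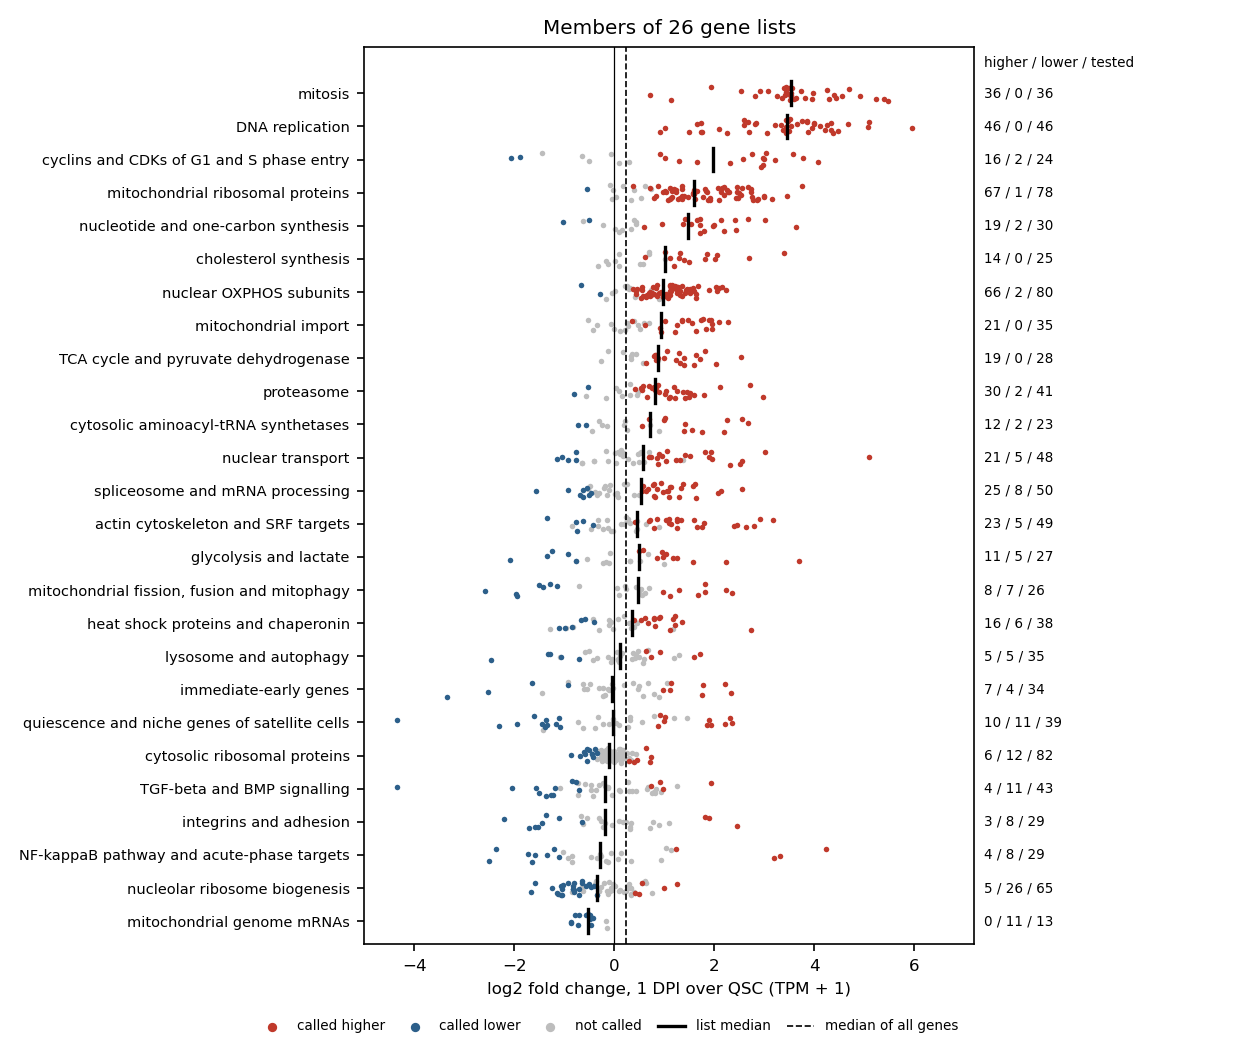
Each point is the log2 fold change (x axis, 1 DPI over QSC) of a tested member of 26 gene lists (y axis), red where higher, blue where lower and grey where not called, with a bar at the list's median and a dashed line at the median of all genes, 0.24. The numbers at the right are the higher, lower and tested members, and the lists run downward from the mitosis list, median 3.53, to the mitochondrial genome mRNAs, median −0.53.

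Mitochondrial genes of the nucleus and of the mitochondrial genome moved in opposite directions. Of 80 nuclear subunits of oxidative phosphorylation, 66 were higher and 2 lower, or 33 and 3 after scaling, with a median of 0.97. Of the 13 mRNAs of the mitochondrial genome, 0 were higher and 11 lower, or 12 after scaling, with a median of −0.53. The lower count of the nuclear subunits was 1 without QSC library 5 or 6 or 1 DPI library 5 or 6. Among complex I genes, Ndufv2 held 254, 269.7 and 284 TPM at 1 DPI, against 51.2, 72.7 and 57.8 TPM in QSC, a clear gap (log2 fold change 2.15, SE 0.16, limma adjusted p = 7.83e-07). Ndufs7 and Ndufs4 rose, Ndufs7 to 175 ± 13.7 at 1 DPI, against 36.8 ± 8.43 TPM in QSC. Ndufs4 rose to 134 ± 19.1 at 1 DPI, against 31.9 ± 10.9 TPM in QSC. Of complex II, Sdhb rose to 345 ± 34.5 at 1 DPI, against 114 ± 17.1 TPM in QSC, of complex III, Uqcrq to 709 ± 77.6 at 1 DPI, against 228 ± 42.6 TPM in QSC, and of the ATP synthase, Atp5c1 to 497 ± 19.3 at 1 DPI, against 202 ± 44.05 TPM in QSC. Of complex IV, Cox5a stood at 599 at 1 DPI against 306 TPM in QSC, Cox6b1 at 735 at 1 DPI against 433 TPM in QSC and Cox4i1, which fell in a call that held in 8 of 14 alternatives, at 800.2 at 1 DPI against 970.3 TPM in QSC.

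The mitochondrial genome's mt-Co3, a core subunit of complex IV, held 3738, 3694 and 3778 TPM at 1 DPI, against 7128, 6716 and 6712 TPM in QSC. Each injured library was lower (log2 fold change -0.87, SE 0.11, limma adjusted p = 3.12e-05). The joint mRNA of mt-Atp8 and mt-Atp6 stood at the top of the genes that fell by level, and mt-Atp6 stood at 11464 at 1 DPI against 15996 TPM in QSC (log2 fold change -0.48, SE 0.07, limma adjusted p = 0.000162). mt-Cytb fell to 5066 at 1 DPI against 8349 TPM in QSC and mt-Co1 to 2078 at 1 DPI against 3805 TPM in QSC. mt-Nd1 (3145 at 1 DPI against 3489.8 TPM in QSC) and mt-Nd3 (359 at 1 DPI against 402 TPM in QSC) did not pass. Together the 13 mRNAs took 7.06%, 6.88% and 6.86% of all TPM at 1 DPI, against 9.92%, 9.76% and 9.94% in QSC. Nuclear copies of mitochondrial sequence match 7 of these mRNAs over 50% or more of their length, so reads between them cannot be assigned with certainty. In control cells 1 of the 13 was lower and 0 higher.

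Genes of mitochondrial translation mostly rose. Of 78 mitochondrial ribosomal protein genes, 67 were higher and 1 lower, or 57 and 1 after scaling, with a median of 1.59. Leaving out any library gave 64 or 65 higher, and 0 lower except without 1 DPI library 7. Mrpl58, a peptide release factor in the large subunit, held 203, 209 and 192 TPM at 1 DPI, against 14.6, 11.2 and 16.8 TPM in QSC. Mrpl18, Mrpl40 and Mrps27 rose to 202 ± 29.5 at 1 DPI, against 17.4 ± 1.98 TPM in QSC, 123 ± 15.6 at 1 DPI, against 12.98 ± 1.597 TPM in QSC and 83.2 ± 7.86 at 1 DPI, against 10.2 ± 4.15 TPM in QSC. Of 35 genes of mitochondrial protein import, 21 were higher and 0 lower, or 16 and 3 after scaling, and 1 was lower without 1 DPI library 7. Samm50, of the outer membrane sorting machinery, rose to 134 ± 18.5 at 1 DPI, against 26.7 ± 2.83 TPM in QSC, and the inner membrane gate genes Timm50 and Timm17b to 148 ± 27.7 at 1 DPI, against 46.99 ± 3.78 TPM in QSC and 63.7 ± 16.5 at 1 DPI, against 18.3 ± 4.18 TPM in QSC, while the receptor Tomm20 (257 at 1 DPI against 371 TPM in QSC) did not pass. Of 28 TCA cycle and pyruvate dehydrogenase genes, 19 were higher and 0 lower, or 12 and 1 after scaling. Idh2 rose to 188 ± 44.2 at 1 DPI, against 44.8 ± 6.14 TPM in QSC, citrate synthase (Cs) to 126 ± 22.1 at 1 DPI, against 47.5 ± 10.2 TPM in QSC, and Dlat, a pyruvate dehydrogenase subunit, to 100.5 ± 17.5 at 1 DPI, against 28.3 ± 7.67 TPM in QSC.

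Genes that shape mitochondria moved in both directions. Of 26 genes of fission, fusion and mitophagy, 8 were higher and 7 lower, or 6 and 7 after scaling. The fusion gene Opa1 rose to 27.02 ± 5.67 at 1 DPI, against 7.11 ± 2.38 TPM in QSC, its protease Oma1 to 14.01 ± 3.44 at 1 DPI, against 3.38 ± 1.398 TPM in QSC, and the fission gene Mtfp1 to 16.5 ± 6.39 at 1 DPI, against 2.36 ± 0.958 TPM in QSC. Dnm1l, which encodes the fission GTPase Drp1 that the series deletes in other mice, held 49.9, 42.9 and 55.2 TPM at 1 DPI, against 37.5, 32.5 and 30.2 TPM in QSC. The libraries did not overlap, and the difference of 0.55 did not pass (SE 0.27, limma adjusted p = 0.147). Several autophagy genes of this list fell. Sqstm1, encoding the receptor p62, held 467, 499.8 and 357 TPM at 1 DPI, against 2921, 2422 and 2573 TPM in QSC, with a wide gap (log2 fold change -2.59, SE 0.21, limma adjusted p = 1.19e-06). Gabarapl1, Map1lc3a and Map1lc3b, the membrane tags that such receptors bind, fell to 67.2 at 1 DPI against 264 TPM in QSC, 53.3 at 1 DPI against 208 TPM in QSC and 202 at 1 DPI against 574 TPM in QSC, and the kinase Pink1, which marks damaged mitochondria, to 5.96 at 1 DPI against 16.9 TPM in QSC. The hypoxia-inducible receptor gene Bnip3 rose (2.22), and 94.2% of its transcript is shared with other genes.

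Of 28 genes of fatty acid oxidation, 13 were higher and 2 lower, or 7 and 3 after scaling, and without 1 DPI library 5 the higher count was 8. The coactivator Ppargc1b rose to 7.05 ± 2.82 at 1 DPI, against 0.206 ± 0.195 TPM in QSC and Cpt2, which releases acyl groups inside the mitochondrion, to 14.5 ± 2.84 at 1 DPI, against 1.91 ± 1.74 TPM in QSC. Acadvl, the very long chain dehydrogenase, fell to 102 ± 7.43 at 1 DPI, against 165 ± 7.04 TPM in QSC.

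Of 27 glycolysis and lactate genes tested, 11 were higher and 5 lower, or 7 and 5 after scaling. Eno1 held 1437, 1592 and 1996 TPM at 1 DPI, against 292, 428 and 356 TPM in QSC, and 85.6% of its transcript is shared, mostly with Eno1b. Pgk1 (1.56), Ldha (1.18), Tpi1 (1.04) and Gapdh (0.97) rose, and Pgk1 and Ldha share over 50% of their transcripts with copies. Among genes of entry and control, the platelet-type phosphofructokinase Pfkp fell to 74.7 ± 10.9 at 1 DPI, against 192 ± 27.2 TPM in QSC, and Pdk4, which blocks pyruvate dehydrogenase, to 27.4 ± 3.95 at 1 DPI, against 120.2 ± 17.9 TPM in QSC. Without QSC library 4, or without 1 DPI library 5 or 7, the lower count was 3. The pentose phosphate pathway had 6 higher and 0 lower of 9 members, or 4 and 1 after scaling, with its first enzyme G6pdx at 34.9 ± 6.16 at 1 DPI, against 11.6 ± 2.61 TPM in QSC and Tkt at 39.3 ± 11.2 at 1 DPI, against 9.64 ± 5.82 TPM in QSC.

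Genes that make nucleotides and one-carbon units mostly rose, whereas ATF4 targets and amino acid supply genes moved in both directions. Of 30 genes of nucleotide and one-carbon synthesis, 19 were higher and 2 lower, or 16 and 2 after scaling, with a median of 1.47, and 1 was lower when any library other than 1 DPI library 7 was left out. Phgdh, the first enzyme of serine synthesis, held 141, 128 and 231 TPM at 1 DPI, against 8.101, 19.05 and 11.2 TPM in QSC. Its injured libraries were all higher (log2 fold change 3.63, SE 0.55, limma adjusted p = 0.000183), and 89.5% of its transcript is shared with pseudogenes. Mthfd1l and Shmt2, of the mitochondrial folate cycle, rose, Mthfd1l to 31.9 ± 7.76 at 1 DPI, against 3.07 ± 0.772 TPM in QSC. Shmt2 rose to 104 ± 39.5 at 1 DPI, against 24.8 ± 2.98 TPM in QSC, and the purine synthesis genes Pfas and Adsl to 38.5 ± 0.902 at 1 DPI, against 6.39 ± 1.03 TPM in QSC and 158 ± 24.1 at 1 DPI, against 24.2 ± 6.41 TPM in QSC. Prps1, which makes the ribose donor of nucleotides, fell to 214 ± 14.6 at 1 DPI, against 439 ± 55.9 TPM in QSC, whereas its relative Prps2 rose to 21.1 ± 4.96 at 1 DPI, against 4.06 ± 1.15 TPM in QSC. Asns, asparagine synthetase and a target of the stress factor ATF4, held 47.2, 36.3 and 79.02 TPM at 1 DPI, against 2.12, 3.21 and 2.54 TPM in QSC. Of 33 ATF4 targets and amino acid supply genes, 13 were higher and 5 lower, or 11 and 9 after scaling, and the lower ones included the hormone gene Gdf15 (12.6 ± 4.31 at 1 DPI, against 54.6 ± 14.2 TPM in QSC) and the transporter gene Slc7a1 (9.33 ± 0.216 at 1 DPI, against 22.1 ± 4.02 TPM in QSC). Atf4 itself stood at 229.6 at 1 DPI against 276 TPM in QSC and did not pass.

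Cholesterol synthesis had 14 higher and 0 lower of 25 members, or 7 and 0 after scaling. The count depended on single libraries, at 9 without QSC library 4, 5 or 6 and 7 without 1 DPI library 6. Mvk, mevalonate kinase, held 14.1, 20.7 and 15.2 TPM at 1 DPI, against 0.223, 1.19 and 0.689 TPM in QSC, and Fdps, Lss and Pmvk rose to 247 ± 35.9 at 1 DPI, against 60.02 ± 6.39 TPM in QSC, 18.6 ± 8.697 at 1 DPI, against 3.53 ± 0.926 TPM in QSC and 25.9 ± 4.37 at 1 DPI, against 6.48 ± 1.28 TPM in QSC. Squalene epoxidase (Sqle, 83.6 at 1 DPI against 77.4 TPM in QSC) and the master regulator Srebf2 (45.6 at 1 DPI against 42.7 TPM in QSC) did not pass.

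Genes of ribosome production leaned downward. Of 65 genes of nucleolar ribosome biogenesis, 5 were higher and 26 lower, or 1 and 35 after scaling, with a median of −0.35. The lower count was 18 to 24 when a library was left out, and the higher count was 3 without QSC library 5 or 6 or 1 DPI library 6 or 7. Nop56, of the methylating box C/D particle, held 855, 848 and 1057 TPM at 1 DPI, against 1911, 1828 and 1841 TPM in QSC. Its QSC libraries were all higher (log2 fold change -1.02, SE 0.12, limma adjusted p = 2.27e-05). Surf6, Rcl1 and Wdr43, which act in early processing of ribosomal RNA, fell to 12.99 ± 2.36 at 1 DPI, against 42.96 ± 3.71 TPM in QSC, 56.9 ± 6.92 at 1 DPI, against 173 ± 17.8 TPM in QSC and 162 ± 13.3 at 1 DPI, against 387 ± 24.9 TPM in QSC, and Gnl3 (nucleostemin) to 272 ± 4.74 at 1 DPI, against 523 ± 43.9 TPM in QSC. Bms1, a GTPase of the small subunit processome, rose to 39.8 ± 4.62 at 1 DPI, against 15.99 ± 0.582 TPM in QSC, and Dkc1, the pseudouridine synthase, to 365 ± 38.5 at 1 DPI, against 181 ± 14.7 TPM in QSC. In control cells the same list had 19 higher and 15 lower, and a median of −0.01.

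Of 82 cytosolic ribosomal protein genes, 6 were higher and 12 lower, or 0 and 41 after scaling. Their median was −0.10. Rps27 held 4086, 3667 and 3957 TPM at 1 DPI, against 6346, 7008 and 7952 TPM in QSC, and Rps19 fell to 3035 at 1 DPI against 4566 TPM in QSC. Many of these genes share sequence with processed pseudogenes. Of 46 translation factors, 10 were higher and 12 lower, or 2 and 19 after scaling, and without QSC library 5 or 6 the higher count was 6. Eif5, Eif4e and Eif1a, all of initiation, fell to 1168 at 1 DPI against 2468 TPM in QSC, 709 at 1 DPI against 1251 TPM in QSC and 209 at 1 DPI against 469 TPM in QSC, while Eif2b3 and Eif2b1, of the exchange factor that recharges eIF2, rose, Eif2b3 to 117 at 1 DPI against 37.8 TPM in QSC. Eif2b1 rose to 84.1 at 1 DPI against 30.8 TPM in QSC. Of 23 genes of cytosolic aminoacyl-tRNA synthetases and their complex, 12 were higher and 2 lower, or 10 and 4 after scaling. The higher ones include Aimp1, Aimp2 and Eef1e1, which encode partners of synthetases and not synthetases. Mars stood at 83.8 at 1 DPI against 12.1 TPM in QSC, Farsb at 116 at 1 DPI against 18.9 TPM in QSC and Cars, which fell, at 101 at 1 DPI against 166 TPM in QSC. Without QSC library 4, 1 synthetase gene was lower.

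RNA polymerases I and III had 12 higher and 5 lower of 37 members, or 8 and 10 after scaling. Taf1b, of the polymerase I selectivity factor, rose to 37.8 ± 6.899 at 1 DPI, against 2.87 ± 1.67 TPM in QSC, and its partners Taf1a and Taf1d fell, Taf1a to 22.2 ± 0.797 at 1 DPI, against 52.7 ± 5.65 TPM in QSC. Taf1d fell to 234 ± 6.84 at 1 DPI, against 394 ± 8.33 TPM in QSC. Of 12 polyamine genes, 1 was higher and 6 lower, or 0 and 7 after scaling, and 0 were higher without QSC library 4 or 5 or any 1 DPI library. Oaz1, the antizyme that restrains polyamine synthesis, fell to 1374 ± 117 at 1 DPI, against 2307 ± 43.2 TPM in QSC, and Sat1, which acetylates polyamines for export, to 576 ± 122 at 1 DPI, against 1032 ± 67.2 TPM in QSC. Odc1, the first enzyme, held 310.5 at 1 DPI against 352 TPM in QSC and did not pass.

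Proteasome genes mostly rose, with 30 higher and 2 lower of 41 members, or 15 and 3 after scaling, and a median of 0.82. The lower count was 1 without QSC library 5 or 1 DPI library 7. The assembly chaperone gene Psmg2 held 87.1, 87.5 and 62.5 TPM at 1 DPI, against 8.09, 9.598 and 9.47 TPM in QSC. Psmd14, the deubiquitinase of the lid, rose to 282 ± 27.2 at 1 DPI, against 65.2 ± 10.4 TPM in QSC, and Psmb9 and Psmb10, catalytic subunits of the immunoproteasome, to 18.1 ± 4.25 at 1 DPI, against 2.82 ± 3.21 TPM in QSC and 56.9 ± 13 at 1 DPI, against 15.5 ± 2.18 TPM in QSC. Psme4, an alternative activator, fell to 31.3 ± 3.28 at 1 DPI, against 55.7 ± 4.99 TPM in QSC.

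Chaperone genes moved in both directions. Of 38 heat shock and chaperonin genes, 16 were higher and 6 lower, or 7 and 8 after scaling. Hspe1 and Hspd1, the mitochondrial chaperonin pair, rose, Hspe1 to 981 ± 88.3 at 1 DPI, against 423 ± 15.8 TPM in QSC. Hspd1 rose to 1059.7 ± 60.3 at 1 DPI, against 417 ± 11.04 TPM in QSC, and the chaperonin subunit Cct4 to 477 ± 37.8 at 1 DPI, against 222 ± 28.3 TPM in QSC, though 71.1% of the Hspd1 transcript is shared with other genes. Hspa14, a ribosome-associated chaperone, rose to 134 ± 32.2 at 1 DPI, against 19.2 ± 3.32 TPM in QSC. Hspa5, the main chaperone of the endoplasmic reticulum, held 1856, 1858 and 1601 TPM at 1 DPI, against 4075, 3675 and 3663 TPM in QSC. It was lower in each injured library (log2 fold change -1.1, SE 0.12, limma adjusted p = 1.46e-05). The inducible Hspa1a stood at 135 at 1 DPI against 282 TPM in QSC and Hspa1b at 5.33 at 1 DPI against 16.2 TPM in QSC, and neither passed. Of 27 genes of the unfolded protein response, 11 were higher and 4 lower, or 5 and 5 after scaling. Sdf2l1 and Creld2, chaperones of that compartment, rose, Sdf2l1 to 63.3 ± 5.403 at 1 DPI, against 5.61 ± 3.14 TPM in QSC. Creld2 rose to 118 ± 19.4 at 1 DPI, against 31.5 ± 6.12 TPM in QSC, while the sensors Ern1 and Atf6 fell, Ern1 to 9.73 ± 1.48 at 1 DPI, against 31.3 ± 3.13 TPM in QSC. Atf6 fell to 16.4 ± 0.966 at 1 DPI, against 43.96 ± 6.64 TPM in QSC.

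Antioxidant genes split as well. Of 32, 12 were higher and 6 lower, or 5 and 10 after scaling. Gsr, glutathione reductase, rose to 26.2 ± 2.53 at 1 DPI, against 3.75 ± 1.69 TPM in QSC, and the mitochondrial peroxiredoxins Prdx3 and Prdx5 to 114 ± 10.9 at 1 DPI, against 24.2 ± 5.54 TPM in QSC and 305 ± 36.3 at 1 DPI, against 71.4 ± 8.17 TPM in QSC. Hmox1, heme oxygenase, held 15.8, 14.3 and 21.3 TPM at 1 DPI, against 34.2, 150.3 and 99.2 TPM in QSC, and Srxn1, sulfiredoxin, fell to 11.7 ± 2.22 at 1 DPI, against 26.8 ± 3.17 TPM in QSC; both are targets of the factor Nfe2l2, which itself stood at 187 at 1 DPI against 281 TPM in QSC. Of 35 lysosome and autophagy genes, 5 were higher and 5 lower, or 2 and 9 after scaling. Ctsf and Ctsl, cathepsin proteases, fell, Ctsf to 6.66 ± 3.27 at 1 DPI, against 37.96 ± 1.69 TPM in QSC. Ctsl fell to 317 ± 22.4 at 1 DPI, against 664 ± 56.4 TPM in QSC, and Lamp2, of the lysosomal membrane, to 135 ± 20.5 at 1 DPI, against 329 ± 32.9 TPM in QSC. Atg5 rose to 31.6 ± 9.24 at 1 DPI, against 9.96 ± 4.11 TPM in QSC.

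Among immediate-early genes, which respond to stimuli within minutes, 7 of 34 were higher and 4 lower, or 6 and 10 after scaling. Fos held 1217, 1277 and 840.0 TPM at 1 DPI, against 263, 185 and 271 TPM in QSC. Its injured libraries were all higher (log2 fold change 2.2, SE 0.22, limma adjusted p = 5.03e-06). Jun, its partner in the AP-1 factor, rose to 311 ± 15.8 at 1 DPI, against 62.1 ± 14.4 TPM in QSC, and Ccn1, a matricellular protein, to 738 ± 33.8 at 1 DPI, against 222 ± 41.9 TPM in QSC. Fosl1, another AP-1 subunit, held 115, 103 and 148 TPM at 1 DPI, against 779.8, 645 and 667 TPM in QSC, and was higher in every QSC library (log2 fold change -2.52, SE 0.23, limma adjusted p = 2.84e-06); 62.5% of its transcript overlaps Ccdc85b. Egr1 (309 at 1 DPI against 375 TPM in QSC), Junb (475 at 1 DPI against 507 TPM in QSC), Atf3 (87.8 at 1 DPI against 125 TPM in QSC) and Ier2 (263 at 1 DPI against 380.4 TPM in QSC) did not pass. The antiproliferative Btg1 fell to 148 ± 36.2 at 1 DPI, against 456 ± 50.3 TPM in QSC.

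Growth factor signalling had 12 higher and 6 lower of 50 members of the FGF, HGF, EGF and IGF pathways, or 8 and 12 after scaling. Without QSC library 4 or 5 or 1 DPI library 7, the lower count was 3. Of the receptors, Fgfr1 held 59.4, 72.1 and 59.7 TPM at 1 DPI, against 517, 443 and 438 TPM in QSC. Each quiescent library was several times above each injured one (log2 fold change -2.85, SE 0.33, limma adjusted p = 2.12e-05). Met, the HGF receptor, rose to 41.8 ± 2.897 at 1 DPI, against 21.6 ± 1.13 TPM in QSC. Of ligands and their binding proteins, Igfbp3 held 46.5, 29.6 and 19.5 TPM at 1 DPI, against 1.24, 1.305 and 1.12 TPM in QSC, Igfbp5 rose to 111 ± 19.1 at 1 DPI, against 16.9 ± 8.17 TPM in QSC and Pdgfa to 45.9 ± 4.72 at 1 DPI, against 16 ± 4.52 TPM in QSC. Lif, a cytokine of myoblast growth, fell to 1.68 ± 1.92 at 1 DPI, against 27.8 ± 18.3 TPM in QSC. Dusp5 and Dusp10, phosphatases of MAP kinases, moved in opposite directions, to 12.97 at 1 DPI against 3.27 TPM in QSC and 31.6 at 1 DPI against 90.5 TPM in QSC.

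TGF-beta and BMP signalling had 4 higher and 11 lower of 43 members, or 1 and 16 after scaling, and a median of −0.18. Without QSC library 4, and also without 1 DPI library 7, the lower count was 7. The ligand Bmp2 fell to 2.25 ± 0.742 at 1 DPI, against 8.88 ± 3.63 TPM in QSC, the receptor Bmpr2 to 11.3 ± 1.298 at 1 DPI, against 33.7 ± 2.27 TPM in QSC, and the transducers Smad5 and Smad1 to 17.5 ± 2.65 at 1 DPI, against 41.6 ± 8.27 TPM in QSC and 11.8 ± 0.333 at 1 DPI, against 22.04 ± 1.997 TPM in QSC. Id1, Id2 and Id3, targets of BMP signals described with the myogenic regulators, rose, as did the transducer gene Smad2. Bmp4 stood at 176 at 1 DPI against 96.6 TPM in QSC and Fst, follistatin, at 3.32 at 1 DPI against 1.56 TPM in QSC, and neither passed. Of 61 Wnt pathway genes, 28 reached the filter on low values, and 3 were higher and 1 lower, or 2 and 5 after scaling. Wnt4, known to hold satellite cells at rest when made by the fibre, held 0.253, 0.202 and 0.227 TPM at 1 DPI, against 5.85, 5.02 and 6.58 TPM in QSC. The Wnt target Axin2 stood at 1.81 at 1 DPI against 1.34 TPM in QSC and did not pass.

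Of 19 genes of the molecular clock, 4 were higher and 6 lower, or 3 and 7 after scaling. Arntl, encoding the activator BMAL1, held 8.29, 9.98 and 5.61 TPM at 1 DPI, against 69.1, 83.2 and 88.4 TPM in QSC, with no overlap (log2 fold change -3.2, SE 0.33, limma adjusted p = 7.16e-06), and its partner Clock fell to 21.95 ± 4.67 at 1 DPI, against 58.4 ± 3.17 TPM in QSC. Of genes that BMAL1 and CLOCK are known to activate, Dbp and Per3 rose, Dbp to 19.8 ± 1.57 at 1 DPI, against 1.83 ± 0.681 TPM in QSC. Per3 rose to 10.9 ± 2.89 at 1 DPI, against 0.827 ± 0.608 TPM in QSC, and Nr1d1 and Cry1 fell, Nr1d1 to 61.1 ± 24.03 at 1 DPI, against 237 ± 34.5 TPM in QSC. Cry1 fell to 19.7 ± 6.59 at 1 DPI, against 71.7 ± 23.8 TPM in QSC. The time of day of tissue collection is not given in the labels, so time and injury cannot be told apart for these genes.

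Chemokines and cytokines had 20 higher and 3 lower of 45 members, or 17 and 5 after scaling, with a median of 1.19 and 14 to 20 higher when a library was left out. Beside Spp1, the chemokine gene Ccl6 held 358, 188 and 245 TPM at 1 DPI, against 11.7, 0.135 and 0.133 TPM in QSC, and Ccl4 335, 162 and 50.6 TPM at 1 DPI, against 0.119, 3.52 and 5.85 TPM in QSC. Both were higher in every injured library, with QSC library 4 at the top of the quiescent group for Ccl6. Ccl3 held 157, 106 and 17.5 TPM at 1 DPI and was listed at its lowest value in all 3 QSC libraries, as was Il1a, at 17.7, 7.56 and 2.53 TPM at 1 DPI. Il1b and Tnf, classical inflammatory cytokines, reached 29.6 ± 25.9 at 1 DPI, against 1.51 ± 1.34 TPM in QSC and 13.7 ± 7.75 at 1 DPI, against 0.212 ± 0.249 TPM in QSC. Csf1 and Il34, both ligands of the macrophage receptor Csf1r, rose, Csf1 to 133 ± 57.95 at 1 DPI, against 12.2 ± 3.76 TPM in QSC. Il34 rose to 14.5 ± 4.2 at 1 DPI, against 0.741 ± 0.702 TPM in QSC, Cxcl12 to 86.1 ± 16.1 at 1 DPI, against 13.1 ± 2.96 TPM in QSC and the eosinophil attractant Ccl11 to 101 ± 30.4 at 1 DPI, against 16.8 ± 10.6 TPM in QSC. Csf3, a neutrophil growth factor, fell to 1.02 ± 0.932 at 1 DPI, against 8.64 ± 6.396 TPM in QSC, and Clcf1 to 63.6 ± 6.93 at 1 DPI, against 165 ± 14.5 TPM in QSC.  

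Markers of myeloid cells rose beside these genes. The summed level of 24 macrophage and monocyte markers was 1206, 523 and 353 TPM in 1 DPI libraries 5, 6 and 7, against 128, 66.9 and 92.9 TPM in QSC libraries 4, 5 and 6. That of 17 neutrophil markers was 313, 415 and 107 TPM at 1 DPI, against 12.6, 18.8 and 8.17 TPM in QSC. Of the macrophage markers, 9 of 24 were higher and 0 lower, or 8 and 0 after scaling, and without 1 DPI library 7 the higher count was 15. Tyrobp, an adaptor of myeloid receptors, held 97.8, 77.5 and 39.9 TPM at 1 DPI, against 0.128, 0.127 and 7.21 TPM in QSC. Lyz2, lysozyme, held 416, 126 and 67 TPM at 1 DPI, against 45.5, 1.7 and 10.3 TPM in QSC, and 95.97% of its transcript is shared with Lyz1. Of the defining genes, the pan-leukocyte Ptprc stood at 7.64 at 1 DPI against 1.46 TPM in QSC, Adgre1 at 1.702 at 1 DPI against 0.566 TPM in QSC and Csf1r at 3.95 at 1 DPI against 1.38 TPM in QSC, and none passed. Of 13 neutrophil markers tested, 4 were higher, or 3 after scaling, and the count was 2 without QSC library 4 or 6 or 1 DPI library 5 or 6. S100a8 held 157, 181 and 45.9 TPM at 1 DPI, against 5.49, 13.8 and 0.129 TPM in QSC, a call that held in 5 of 14 alternatives. S100a9 held 69.2, 147 and 29.01 TPM at 1 DPI and its lowest value in each QSC library, and its call was lost in 7 of 14 alternatives, among them the removal of any of 5 libraries. The neutrophil genes Ly6g, Elane, Ngp and Ltf stayed under the filter. What share of the chemokine values comes from myeloid cells was not tested.

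**Figure D4:**
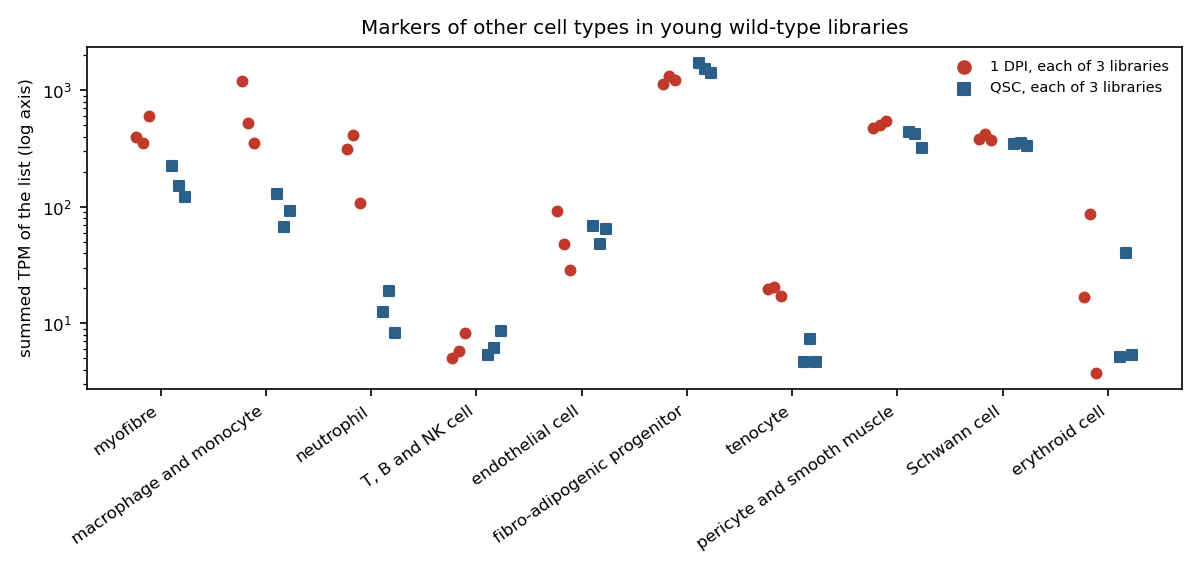
Summed TPM (log axis) of 10 lists of markers of other cell types in each of the 3 1 DPI libraries (red circles) and 3 QSC libraries (blue squares). The macrophage and neutrophil sums are higher in every injured library, as are the myofibre, tenocyte, pericyte and Schwann cell sums, the fibro-adipogenic sum is lower, and those of T, B and NK cells, endothelial cells and erythroid cells overlap.

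NF-kappaB genes did not rise as a group, with 4 higher and 8 lower of 29, or 4 and 13 after scaling. Nfkb1, which encodes a subunit of the factor, held 150.3, 125 and 85.2 TPM at 1 DPI, against 852, 485 and 536 TPM in QSC, and every QSC library was above every injured one (log2 fold change -2.36, SE 0.42, limma adjusted p = 0.00067). The inhibitors Nfkbib and Tnip1 fell, Nfkbib to 71.9 ± 1.53 at 1 DPI, against 229 ± 46.1 TPM in QSC. Tnip1 fell to 15.7 ± 6.402 at 1 DPI, against 89.9 ± 21.5 TPM in QSC, and Stat3, a transducer of cytokine receptors, to 252 ± 63.2 at 1 DPI, against 569 ± 44.1 TPM in QSC. Ptgs2, encoding cyclooxygenase 2, held 31.99, 30.3 and 16.4 TPM at 1 DPI, against 0.471, 0.721 and 0.0837 TPM in QSC, higher in each injured library (log2 fold change 4.23, SE 0.41, limma adjusted p = 4.8e-06), and Socs3, which dampens STAT3 signalling, rose to 155 ± 13.6 at 1 DPI, against 16.7 ± 5.92 TPM in QSC. Nfkbia (910.4 at 1 DPI against 1298 TPM in QSC) and Rela (34.6 at 1 DPI against 62.2 TPM in QSC) did not pass.

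Interferon genes had 11 higher and 6 lower of 43, or 3 and 7 after scaling. The higher count was 7 without QSC library 5 and 6 without 1 DPI library 6, and the lower count was 3 without QSC library 4. Xaf1 rose to 35.2 ± 10.7 at 1 DPI, against 4.404 ± 1.51 TPM in QSC and Ifit2 to 12.5 ± 0.404 at 1 DPI, against 1.97 ± 0.639 TPM in QSC. The MHC class I genes H2-K1 and B2m fell, H2-K1 to 309 ± 36.3 at 1 DPI, against 667 ± 69.3 TPM in QSC. B2m fell to 583 ± 75.04 at 1 DPI, against 1217 ± 248 TPM in QSC. Isg15 (30.4 at 1 DPI against 12.1 TPM in QSC) and Irf7 (8.18 at 1 DPI against 7.81 TPM in QSC) did not pass. Of 23 hypoxia genes, 2 were higher and 5 lower, or 2 and 9 after scaling, with Ndrg1 at 67.9 ± 8.35 at 1 DPI, against 245 ± 69.4 TPM in QSC and Egln3 at 3.65 ± 1.46 at 1 DPI, against 0.523 ± 0.3702 TPM in QSC, and the lower count was 3 without QSC library 4 or 1 DPI library 5.

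Matrix remodelling genes changed in both directions. Of 33 proteases and inhibitors, 10 were higher and 5 lower, or 5 and 8 after scaling. Timp1, an inhibitor of metalloproteinases, held 174, 190.0 and 224 TPM at 1 DPI, against 11.5, 7.14 and 8.03 TPM in QSC. The groups were far apart (log2 fold change 4.33, SE 0.29, limma adjusted p = 4.09e-07). Mmp2, gelatinase A, held 28.6, 13.4 and 14.6 TPM at 1 DPI, against 205, 108 and 197 TPM in QSC, with the opposite order (log2 fold change -3.13, SE 0.48, limma adjusted p = 0.000208). Plat, tissue plasminogen activator, fell to 37.7 ± 9.25 at 1 DPI, against 151 ± 20.3 TPM in QSC, while the cell surface proteases Adam19 and Adam8 rose, Adam19 to 12.9 ± 3.88 at 1 DPI, against 0.552 ± 0.3398 TPM in QSC. Adam8 rose to 9.68 ± 1.89 at 1 DPI, against 0.886 ± 0.294 TPM in QSC. Serpinh1, the collagen chaperone, had a log2 fold change of 1.26, a call that held in 4 of 14 alternatives. Of 37 collagens and basement membrane genes, 4 were higher and 5 lower, or 4 and 9 after scaling, and the lower count was 3 without QSC library 4 or 1 DPI library 6 or 7. Tnc, tenascin-C, held 60.8, 64.3 and 72.9 TPM at 1 DPI, against 11.1, 3.401 and 3.04 TPM in QSC, and Bgn, biglycan, rose to 202 ± 26.3 at 1 DPI, against 51.6 ± 17.2 TPM in QSC. Col6a1 fell to 18.8 ± 2.61 at 1 DPI, against 56.4 ± 1.82 TPM in QSC and Col4a1 to 28.7 ± 6.45 at 1 DPI, against 61.2 ± 6.396 TPM in QSC. Markers of fibro-adipogenic progenitors, which make much of the muscle's matrix, summed to 1141, 1339 and 1237 TPM at 1 DPI, against 1736, 1527 and 1411 TPM in QSC, with 3 higher and 2 lower of 19, or 2 and 4 after scaling, and 1 lower without QSC library 4 or 1 DPI library 6 or 7. The sum mostly reflects abundant members such as Gsn (531 at 1 DPI against 508 TPM in QSC) and Dpt, which fell (192 at 1 DPI against 433 TPM in QSC), as did Dcn. The higher members had low levels: Ly6a (17.9 at 1 DPI against 2.90 TPM in QSC), Col1a2 (9.17 at 1 DPI against 3.22 TPM in QSC) and Adam12 (9.46 at 1 DPI against 1.36 TPM in QSC). The Ly6a call held in 6 of 14 alternatives. Pdgfra stood at 2.302 at 1 DPI against 0.233 TPM in QSC and did not pass. The part of fibro-adipogenic progenitors in these matrix values was not tested.

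Adhesion genes leaned downward, with 3 higher and 8 lower of 29, or 2 and 11 after scaling. The lower count was 4 without QSC library 4 and 5 without QSC library 6 or 1 DPI library 5 or 7. Cd9, a tetraspanin, held 526, 588 and 494 TPM at 1 DPI, against 1696, 1818 and 1711 TPM in QSC, and Itgav, an integrin chain, fell to 56.5 ± 8.02 at 1 DPI, against 164 ± 15.6 TPM in QSC. Cdh2, N-cadherin, rose to 18.8 ± 1.31 at 1 DPI, against 2.63 ± 0.495 TPM in QSC and the laminin receptor chain Itga3 to 4.13 ± 1.66 at 1 DPI, against 0.414 ± 0.224 TPM in QSC. Cdh15, M-cadherin, held 40.98, 51.4 and 59.7 TPM at 1 DPI, against 16.1, 14.3 and 9.09 TPM in QSC, a call that held in 5 of 14 alternatives. Of 39 semaphorins, plexins, ephrins and slits, 7 were higher and 1 lower, or 5 and 2 after scaling, and 4 were higher without 1 DPI library 7. The lower count was 2 without QSC library 5 or 1 DPI library 7, and 0 with any 1 of the other 4 libraries left out. Plxna1 and Nrp1, receptors of semaphorins, rose, Plxna1 to 8.299 ± 1.84 at 1 DPI, against 0.794 ± 0.294 TPM in QSC. Nrp1 rose to 23.3 ± 5.06 at 1 DPI, against 5.62 ± 1.18 TPM in QSC.

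More cytoskeletal genes rose than fell, with 23 higher and 5 lower of 49, or 15 and 10 after scaling. Tubb5, the main beta-tubulin of dividing cells, held 964, 902 and 1037 TPM at 1 DPI, against 104, 126 and 91.05 TPM in QSC. Its libraries were tight and far apart (log2 fold change 3.18, SE 0.15, limma adjusted p = 7.25e-08). Stmn1, a regulator of microtubules, rose to 635 ± 131 at 1 DPI, against 102 ± 25.02 TPM in QSC, Actn1 to 66.2 ± 15.9 at 1 DPI, against 7.92 ± 1.75 TPM in QSC, Tpm1 to 216 ± 24.1 at 1 DPI, against 61.2 ± 5.55 TPM in QSC and Vim to 1106 ± 74.2 at 1 DPI, against 444 ± 79.9 TPM in QSC. Flnc, the muscle filamin, fell to 40.7 ± 5.19 at 1 DPI, against 104 ± 3.36 TPM in QSC. The lower count was 3 without QSC library 5 or 1 DPI library 5 or 7.

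Genes of differentiation and fusion did not rise as a group, with 6 higher and 3 lower of 29, or 6 and 5 after scaling. Chrnd and Chrna1, subunits of the acetylcholine receptor, rose, Chrnd to 10.5 ± 3.97 at 1 DPI, against 0.3502 ± 0.225 TPM in QSC. Chrna1 rose to 106 ± 2.36 at 1 DPI, against 27.5 ± 9.85 TPM in QSC, whereas Musk, the kinase that clusters this receptor, fell to 115 ± 32.5 at 1 DPI, against 382 ± 33.5 TPM in QSC. The contractile genes Myl1 and Acta1 rose, Myl1 to 59.95 ± 31.3 at 1 DPI, against 8.16 ± 5.48 TPM in QSC. Acta1 rose to 108 ± 57.98 at 1 DPI, against 21.8 ± 10.1 TPM in QSC. Tnnc2 reached 87.9 ± 29.1 at 1 DPI, against 18.1 ± 6.02 TPM in QSC, but 78.3% of its transcript overlaps Ube2c. The fusion gene Mymk stood at 2.33 at 1 DPI against 6.16 TPM in QSC and the embryonic myosin Myh3 at 0.0346 at 1 DPI against 0.234 TPM in QSC, with all 3 libraries at 1 DPI at its lowest value, and neither passed. Markers of the myofibre summed to 398, 350 and 607 TPM at 1 DPI, against 224, 150 and 121 TPM in QSC, with 4 higher and 0 lower of 22, and 1 lower after scaling and without 1 DPI library 6. Adult myosins Myh4 and Myh1 stood at 1.19 at 1 DPI against 0.454 TPM in QSC and 0.941 at 1 DPI against 0.537 TPM in QSC and did not pass. The part of fibre RNA in the values of Acta1 and Myl1 was not tested.

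Genes of the nucleus were mixed. Of 48 nuclear transport genes, 21 were higher and 5 lower, or 13 and 9 after scaling. Nup37, a nucleoporin, held 93.01, 65.1 and 96.8 TPM at 1 DPI, against 2.34, 0.826 and 1.51 TPM in QSC, a large gap (log2 fold change 5.09, SE 0.28, limma adjusted p = 1.44e-07). The exporter Xpo1 rose to 89.02 ± 4.77 at 1 DPI, against 10.7 ± 4.08 TPM in QSC and the nucleoporin Nup93 to 103 ± 14.4 at 1 DPI, against 16.6 ± 1.85 TPM in QSC. Nxf1, the mRNA exporter, fell to 166 ± 19.8 at 1 DPI, against 368 ± 19.4 TPM in QSC. Of 45 chromatin genes, 15 were higher and 6 lower, or 10 and 11 after scaling. The high mobility group genes Hmgb2 and Hmga2 rose, Hmgb2 to 374 ± 56.1 at 1 DPI, against 29.1 ± 1.89 TPM in QSC. Hmga2 rose to 15.1 ± 2.05 at 1 DPI, against 0.0962 ± 0.0676 TPM in QSC. The methyltransferase genes Dnmt1, Prmt5 and Ezh2 rose to 51.7 ± 13.97 at 1 DPI, against 6.79 ± 2.89 TPM in QSC, 105 ± 20.1 at 1 DPI, against 26.6 ± 4.47 TPM in QSC and 102 ± 21.9 at 1 DPI, against 31.2 ± 4.59 TPM in QSC. The demethylase Kdm5b and the dioxygenase Tet2 fell, Kdm5b to 9.22 ± 2.58 at 1 DPI, against 36.4 ± 1.29 TPM in QSC. Tet2 fell to 34.9 ± 9.25 at 1 DPI, against 78.9 ± 6.06 TPM in QSC. Of 50 spliceosome genes, 25 were higher and 8 lower, or 12 and 15 after scaling. The core genes Prpf31, Lsm8 and Snrpe rose to 146 at 1 DPI against 24.02 TPM in QSC, 145 at 1 DPI against 32.4 TPM in QSC and 655 at 1 DPI against 266 TPM in QSC, and the splicing regulators Srsf5 and Srsf7 fell, Srsf5 to 413 at 1 DPI against 1223 TPM in QSC. Srsf7 fell to 714 at 1 DPI against 1354 TPM in QSC.

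The same comparison in control cells of Pax7-CreER;ROSA26YFP mice, in a separate table with none of these libraries, called 6581 of 18343 genes (35.9%), 4268 higher (23.3%) and 2313 lower (12.6%). Of the genes higher in young wild-type cells and tested there, 2985 of 3930 (76.0%) were also higher, and 15 were lower. Of those lower, 992 of 1471 (67.4%) were also lower, and 4 were higher. Across 16378 genes the fold changes of both tables had a Pearson r of 0.734, a description over genes that are not independent replicates. All 46 replication genes and 34 of 36 mitosis genes were higher in control cells. Cytosolic ribosomal protein genes had 30 higher and 2 lower of 82 there, against 6 and 12 in young wild-type cells, a contrast that was not tested because the tables were fitted separately. Macrophage markers had 23 of 24 higher in control cells. Fos, at 2.2 in young wild-type cells, had a control fold change of 0.22 that did not pass, and Pgf, at -3.34, one of -0.76 that did not pass.

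**Figure D5:**
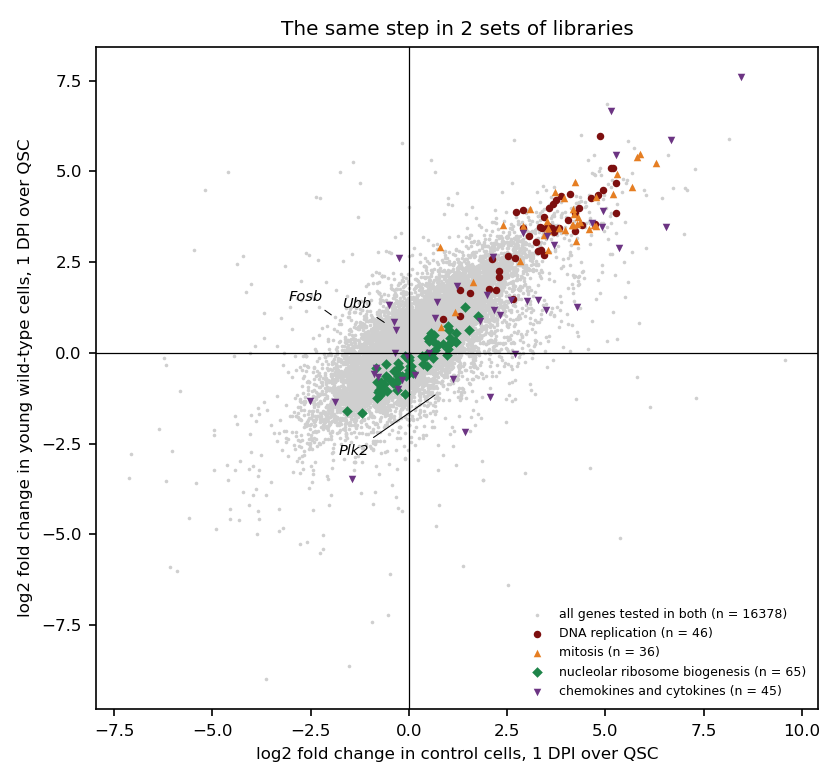
Each point is a gene tested in both tables (n = 16378), placed by its log2 fold change, 1 DPI over QSC, in control cells (x axis) and in young wild-type cells (y axis), with members of 4 lists in colour. Replication and mitosis genes lie high on both axes, nucleolar genes spread to both sides of 0 on both axes, and Fosb, Ubb and Plk2 are labelled as genes called in opposite directions.

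Wild-type cells aged 24 months gave 5511 genes (32.5%) called in their own 1 DPI against QSC comparison, 24.8% higher and 7.72% lower. The difference between young and old fold changes passed for 2 of 16949 genes (0.0118%), 1 in each direction (0.0059% each). They were Gm48294, a predicted gene, and Oxtr, and 1497 genes had an unadjusted p below 0.05 in the same limma test. The median log2 fold change of the mitosis list was 3.53 in young and 2.50 in old cells, and that of the replication list 3.45 and 3.43. For the nucleolar list it was −0.35 and 0.27, with 0 members passing the test of the difference. A p that misses the threshold does not show that the ages did not differ.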

How the data were processed

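RNA of sorted satellite cells was sequenced single-end on an Illumina HiSeq 2500 after PicoPure extraction. Both a standard directional preparation and a low-input kit are named per the labels, and which one these libraries had is unclear. Per the submitters' processing notes, the tools were CASAVA 1.8.2, cutadapt 1.7.1 and RSEM 1.3.1 with build GRCm38, and no aligner is named there. The authors deposited TPM per gene and library, and such values keep no depth.

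Here, limma 3.58.1 (R 4.3.3, eBayes with trend) was fitted to log2(TPM + 1) of all 15 libraries of the young and old table, keeping genes that reached 1 TPM in 3 or more libraries, two-sided, with Benjamini-Hochberg adjustment and a threshold of 0.05. Control cells were fitted within their own table. The age test is the difference of the young and old steps. The fit was also run on simulated data in which few genes were changed, whereas many were called in the young comparison. An adjusted p is harder to pass where few genes change, so recovery there does not give that of the young comparison. In the simulated data the young test missed most changes of 1 log2 and found most of 2 log2. The age test missed most changes of both sizes. Alternatives changed the pseudocount, filter, scaling, libraries, prior, weights and block. Python 3.11.15 with pandas 2.3.3 made summaries, and GENCODE M21 gave positions and transcripts, of which shared stretches were sought by alignment.

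Genes were named by rule: 7 fixed genes, the 15 largest changes each way among non-overlapping coding genes with at least 5 TPM in the higher group, the 8 most abundant called genes each way, and list members as examples. Some genes that the rule names are not reported here. Promoters are shown for replication and mitosis genes, chosen after values were seen, not for the lists first planned. The comparison, members and lists were chosen with earlier results of these data known.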

Additional observations from a re-analysis of the deposited data

Results flagged for a closer look

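The difference between the young and old 1 DPI against QSC changes passed for Oxtr and Gm48294. For Oxtr it was −3.15 on the log2 scale (limma adjusted p = 0.0191), and the call held in 9 of 20 alternatives. All 6 young and old 1 DPI libraries stood near or at the lowest value, while young QSC held 10.6, 9.23 and 14.0 TPM and old QSC 0.0165, 0.244 and 1.02 TPM. For the predicted gene Gm48294 the difference was 3.27, with old QSC at 7.64, 7.84 and 5.50 TPM, and its call held in 10 of 20 alternatives.

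Of the genes called in young wild-type cells, 15 that were higher were lower in control cells and 4 that were lower were higher there, a difference that was not tested, since the tables were deposited separately. Fosb, an AP-1 subunit, had 0.98 in young cells, at 85.1, 106 and 103 TPM at 1 DPI, against 50.3, 38.1 and 61.6 TPM in QSC. In control cells it had −1.89, at 25.0, 27.5, 20.2 and 27.8 TPM at 1 DPI, against 97.5, 75.7 and 116 TPM in QSC. Plk2, a stress-responsive kinase, had −1.09 in young cells and 0.76 in control cells. Adamts4 (0.92 and -1.16), Ubb (0.77 and -0.54), Gadd45a (0.73 and -1.11) and Tubb2b (0.80 and -1.17) were higher in young and lower in control cells, and their young calls held in 6, 13, 5 and 7 of 14 alternatives. Outside the gene lists, and chosen after their values were seen, Sirt4 (1.7 in young and -0.82 in control cells) and Hilpda (-0.89 and 0.86) had young calls that held in all 14 alternatives. Transcripts of Ubb and Tubb2b are shared with other genes over 77.8% and 61.9% of their length.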

How the results depend on the processing

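Of the 1 DPI calls, 2068 higher and 548 lower genes held in all 14 alternatives. Median-of-ratios scaling gave 2606 higher and 2504 lower genes, where the TPM as deposited gave 3934 and 1490, and 377 lower list members, where they gave 224. With a replicate block the lower count was 675, and 138 in the lists. Same-numbered libraries, 5 with 5 and 6 with 6, did not deviate together (r = −0.027 and 0.025). So few pairs cannot show whether libraries of the same number were handled together, and the main fit used no pairing. Leaving out 1 library gave 3223 to 3446 higher and 1059 to 1281 lower genes, 583 to 605 and 177 to 200 in the lists (659 and 224 with all libraries), and 3657 to 4129 and 1821 to 2158 in control cells. Calls for the age difference, 1 higher and 1 lower, became 0 and 0 with a pseudocount of 0.1, a filter at 5 TPM or only the groups compared, 3 and 4 without a filter, 2 higher with array weights, 0 lower with the replicate block, and 0 to 3 and 0 to 6 without 1 library. Ptma was −0.0487 after median-of-ratios scaling, against 0.35 as deposited. The causes were not tested. Of the values of the fixed, the largest and the most abundant genes (list members given as examples are not counted), 714 kept their call and direction, 24 lost the call, 3 gained one and 1 reversed. TPM keep no depth, so counting error, and the limit on low genes it sets, is unknown.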
